A study of Mus musculus with 24 samples.

Results

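Potassium channel genes were taken as the genes whose mouse symbol is Kcn followed by letters and a number, which covers pore-forming and accessory subunits. Of 36605 genes counted in the mouse hippocampus, 92 carried such a symbol, and 79 of these had 10 or more counts in at least 6 of 24 mice. The letters of the symbol placed the 79 genes in 20 subfamilies.

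Potassium channels let potassium ions cross the cell membrane, and in neurons they set the resting potential, end the action potential and limit repetitive firing. *Kcna*, *Kcnb*, *Kcnc*, *Kcnd*, *Kcnh* and *Kcnq* genes encode voltage-gated subunits, *Kcnf*, *Kcng*, *Kcns* and *Kcnv* genes encode modifiers that assemble with *Kcnb* subunits, and *Kcnab*, *Kcne* and *Kcnip* genes encode accessory proteins. *Kcnj* genes encode inward rectifiers, *Kcnk* genes tandem-pore leak channels, and *Kcnma*, *Kcnn* and *Kcnt* genes channels gated by intracellular calcium or sodium, with *Kcnmb* genes encoding partners of *Kcnma1*.

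Poly(A) RNA of whole hippocampus was sequenced from 24 adult mice, and each of 4 genotypes was represented by 3 female and 3 male mice. Wild type mice (Egr1 wtNes Cre-) carried no modified locus. Floxed control mice (Egr1 fNes Cre-) carried loxP sites around *Egr1*, in an allele made in a C57BL/6N background. Cre control mice (Egr1 wtNes Cre+) carried the Nestin-Cre transgene, and Egr1cKO mice (Egr1 fNes Cre+) carried both. The Nestin promoter is active in neural precursor cells of the whole brain, so recombination is not limited to hippocampal neurons. The mice with and without the floxed allele were numbered in separate ranges, so the floxed allele and a difference between series of mice cannot be told apart. Total counts per mouse lay between 18817037 and 25335139 in wild type, 18025168 and 34955004 in floxed control, 18413714 and 23129120 in Cre control, and 20644829 and 27677816 in Egr1cKO mice. Between 103898 and 214739 of these counts fell on the 79 potassium channel genes in each mouse, a mean of 0.586% of all counts (SD 0.0285, n = 24).

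*Egr1* (ENSMUSG00000038418, chromosome 18, 34859823 to 34864984, GRCm38), the transcription factor targeted in these mice, had its lowest, median and highest level at 63.8, 110.6 and 149 counts per 1000000 counts (CPM) in wild type mice and at 66.9, 83.2 and 146 CPM in floxed control mice. In Cre control mice these levels were 47.6, 85.1 and 125 CPM, and in Egr1cKO mice 4.85, 8.17 and 10.2 CPM. Each of the 6 Egr1cKO mice lay below each of the 18 other mice. *Egr1* fell in Egr1cKO mice against floxed control mice with a log2 fold change (log2FC) of -3.56 (SE 0.20) and an adjusted p of 4.23e-08 in edgeR's quasi-likelihood test with Benjamini-Hochberg adjustment over all genes tested. Against Cre control mice the log2FC was -3.43 (SE 0.22), with an adjusted p of 4.91e-07 by edgeR. Between Cre control and wild type mice it was -0.33 (adjusted p 0.729 by edgeR), and between floxed control and wild type mice -0.21 (adjusted p 0.659 by edgeR).

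Female Cre control 1 and male Egr1cKO 3 stood apart from the other 22 mice in several channel genes. *Kcnt1*, a sodium-activated channel, was at 129 CPM in female Cre control 1 and 142 CPM in male Egr1cKO 3, and between 36.9 and 76.0 CPM in the other 22 mice. *Kcnh4*, an ether-a-go-go type channel, was at 8.49 and 14.6 CPM in these 2 mice and between 2.63 and 7.04 CPM in the others. Striatal markers were also high in both. A list of 5 such genes (5 of 5 found, Ppp1r1b most abundant) summed to 115 CPM in male Egr1cKO 3 and 72.2 CPM in female Cre control 1, with 79.2 CPM in male floxed control 3 and a lowest sum of 34.9 CPM. The part of striatal tissue in the *Kcnt1* and *Kcnh4* levels was not tested, and in whole tissue more cells of a type and more RNA per cell cannot be told apart.

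*Kcne2* (ENSMUSG00000039672, chromosome 16, 92292389 to 92298129), an accessory subunit known from choroid plexus epithelium, was high in a few mice. It was at 10.02 CPM in female Cre control 1, 7.41 CPM in male Egr1cKO 2, 6.51 CPM in male floxed control 3, 4.62 CPM in male floxed control 2 and 1.71 CPM in male Cre control 3. The other 19 mice lay between 0.0290 and 1.00 CPM (median 0.272). A list of 8 choroid plexus markers (8 of 8 found, Ttr most abundant) was highest in these 5 mice too, with sums of 2057, 1138, 1042, 816 and 326 CPM in the same order, and between 30.2 and 79.8 CPM in the other 19. Whether choroid plexus tissue accounts for *Kcne2* was not tested. *Kcnj13*, an inward rectifier also known from choroid plexus, reached 2.25 CPM in female Cre control 1 and did not meet the count minimum.

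By level per length, the accessory subunit *Kcnab2* (ENSMUSG00000028931, chromosome 4, 152390742 to 152477871) was the most abundant of the 79 genes, at 140 CPM per kilobase of exon (SD 17.1, n = 24). Among other abundant members, *Kcnip2*, a calcium-binding partner of *Kcnd* channels, was at 62.7 (SD 8.70) and the inward rectifier *Kcnj4* at 37.2 CPM per kilobase (SD 4.70). *Kcnj3* was at 34.0 (SD 3.67), the astrocyte channel *Kcnj10* at 32.3 (SD 6.39), *Kcnk1* at 30.7 (SD 2.93) and *Kcnd2* at 30.5 CPM per kilobase (SD 4.06), and the ranges of these last 4 over the mice overlapped. *Kcnn4*, *Kcnj5* and *Kcnk5* had the lowest levels of the 79 genes, at 0.0546, 0.0863 and 0.115 CPM per kilobase. Between mice, *Kcne2* varied most, with a coefficient of variation of 181%, and *Kcnc1* least, with 7.90%.

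Summed per subfamily, levels per kilobase were highest for *Kcnab* (161 CPM per kilobase, 17.4% of the sum over all 79 genes), *Kcnj* (151, 16.4%), *Kcnip* (100.2, 10.8%), *Kcnc* (95.8, 10.4%), *Kcnq* (77.8, 8.43%) and *Kcnk* (68.9, 7.46%). *Kcna* gave 50.4, *Kcnd* 44.2, *Kcnh* 43.8 and *Kcng* 28.1 CPM per kilobase. *Kcnmb*, *Kcne* and *Kcnu* had the lowest sums, at 1.71, 1.26 and 0.708 CPM per kilobase. The sum over the 79 genes was 936 (SD 27.0) in wild type, 919 (SD 36.9) in floxed control, 888 (SD 42.3) in Cre control and 952 CPM per kilobase (SD 62.1) in Egr1cKO mice, n = 6 each. The sums of all 20 subfamilies overlapped between the genotypes in each of the 4 pairwise comparisons.

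**Figure D1:**
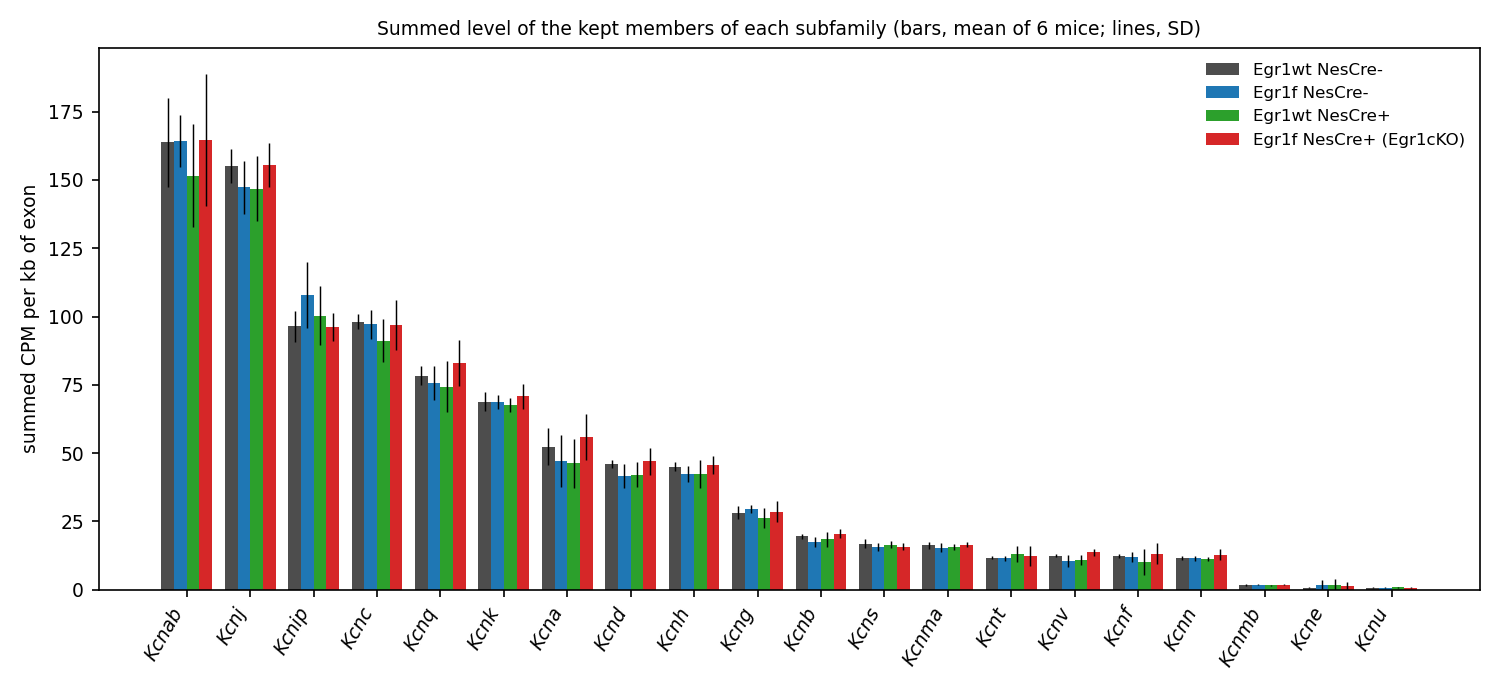
Summed level of each of 20 subfamilies in CPM per kilobase of exon, shown as the mean of 6 mice per genotype with the SD as error bars. *Kcnab* had the highest mean over 24 mice, at 161 CPM per kilobase.

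The *Kcna* sum, which holds the dendrotoxin-sensitive axonal channels, was 52.3 CPM per kilobase (SD 6.71) in wild type, 47.0 (SD 9.54) in floxed control, 46.2 (SD 8.91) in Cre control and 56.0 (SD 8.42) in Egr1cKO mice. The *Kcnq* sum was 78.4 (SD 3.59), 75.7 (SD 6.25), 74.3 (SD 9.20) and 82.9 CPM per kilobase (SD 8.35) in the same order. *Kcnv*, which holds *Kcnv1* alone, was at 12.4 (SD 0.611), 10.5 (SD 2.08), 10.8 (SD 1.86) and 13.7 CPM per kilobase (SD 1.27). In these subfamilies the Egr1cKO mean was the highest of the 4 genotypes, and the spread between mice overlapped. The *Kcnip* sum had another order, with 96.4 (SD 5.76) in wild type, 108 (SD 12.1) in floxed control, 100.3 (SD 10.8) in Cre control and 96.2 CPM per kilobase (SD 5.21) in Egr1cKO mice.

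Of the 13 genes that did not meet the count minimum, *Kcnj13* and *Kcnk7* came closest, with 10 or more counts in 5 mice each. *Kcnn4* was just inside it, with 7 mice, followed by *Kcne2* and *Kcnj5*, with 8 mice each. The libraries do not keep strand, so reads from overlapping genes cannot be told apart. An exon of another gene covered 39.6% of the exon length of *Kcna6* (Gm26673, opposite strand), 31.5% of *Kcnmb4* and 31.1% of *Kcnj3* (Gm26794). For *Kcnj13*, below the count minimum, the share was 49.1% (Gigyf2, opposite strand). The part of their reads that falls in these overlaps is not known, so the levels of these genes are uncertain.

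Egr1cKO and floxed control mice were compared to ask which channel genes differ with Cre and the loss of *Egr1* among mice that all carry the floxed allele. Channel genes lay more often above than below the floxed control level. Of 75 members tested, 53 had a positive log2FC (54 with the size factors of DESeq2), 70.7% against 48.9% of all genes, and the median was 0.11 against -0.01 for all 17265 genes. The log2FC of the members ranged from -0.74 to 0.70. None of the 75 was called by edgeR, which asked for a fold change of 1.2 or more with an adjusted p no higher than 0.05, where 0.0174% of all genes were called, and 0 had groups that did not overlap, against 0.463% of all genes. At an unadjusted p under 0.05, edgeR gave 13 members higher in Egr1cKO mice (17.3%, against 8.14% of all genes) and 3 lower (4%, against 8.04%). DESeq2 gave 14 higher and 3 lower at that p (against 8.98% and 8.04% of all genes). It called 1 member, *Kcnb2* (1.33%, against 0.417% of all genes).

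The count of 13 higher members was 24 without male Egr1cKO 3, 21 without male floxed control 1, and 8 without female floxed control 2 or male floxed control 3. These were 32%, 28% and 10.5% of the members tested, against 12.3%, 10.6% and 5.49% or 4.98% of all genes in the same fits. Without male Egr1cKO 3, 52 log2FC were positive and 23 negative, with a median of 0.11. Among the 25 most abundant members the median log2FC was 0.10, against 0.03 for all genes in that range of 65.4 to 783 CPM. Among the 25 least abundant members it was 0.13, against -0.02 for all genes in their range.

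The delayed rectifier *Kcnb2* (ENSMUSG00000092083, chromosome 1, 15287254 to 15723750) had the smallest unadjusted p of the members. It was at 18.9, 23.5 and 29.9 CPM (lowest, median, highest) in floxed control mice and at 25.0, 35.4 and 39.4 CPM in Egr1cKO mice, n = 6 each. Of the Egr1cKO mice, 5 lay above all floxed control mice, and male Egr1cKO 3, at 25.0 CPM, lay within their range. The log2FC was 0.51 (SE 0.13) with an adjusted p of 0.240 by edgeR. DESeq2 gave a log2FC of 0.51 with an adjusted p of 0.0405, and edgeR gave 0.58 with an adjusted p of 0.0526 without male Egr1cKO 3. Over the 19 alternatives the adjusted p ranged from 0.0405 to 0.478.

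*Kcnv1* (ENSMUSG00000022342, chromosome 15, 45106284 to 45114920), a modifier of *Kcnb* channels, was at 36.6, 46.1 and 64.1 CPM in floxed control mice and at 58.1, 61.3 and 74.1 CPM in Egr1cKO mice. Of the floxed control mice, 5 lay below all Egr1cKO mice, and male floxed control 1, at 64.1 CPM, lay within their range. The log2FC was 0.38 (SE 0.11) with an adjusted p of 0.240 by edgeR, and 0.33 with an adjusted p of 0.0789 without male Egr1cKO 3, whose 74.1 CPM was the highest value. Over the 19 alternatives the adjusted p lay between 0.0693 and 0.478.

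**Figure D2:**
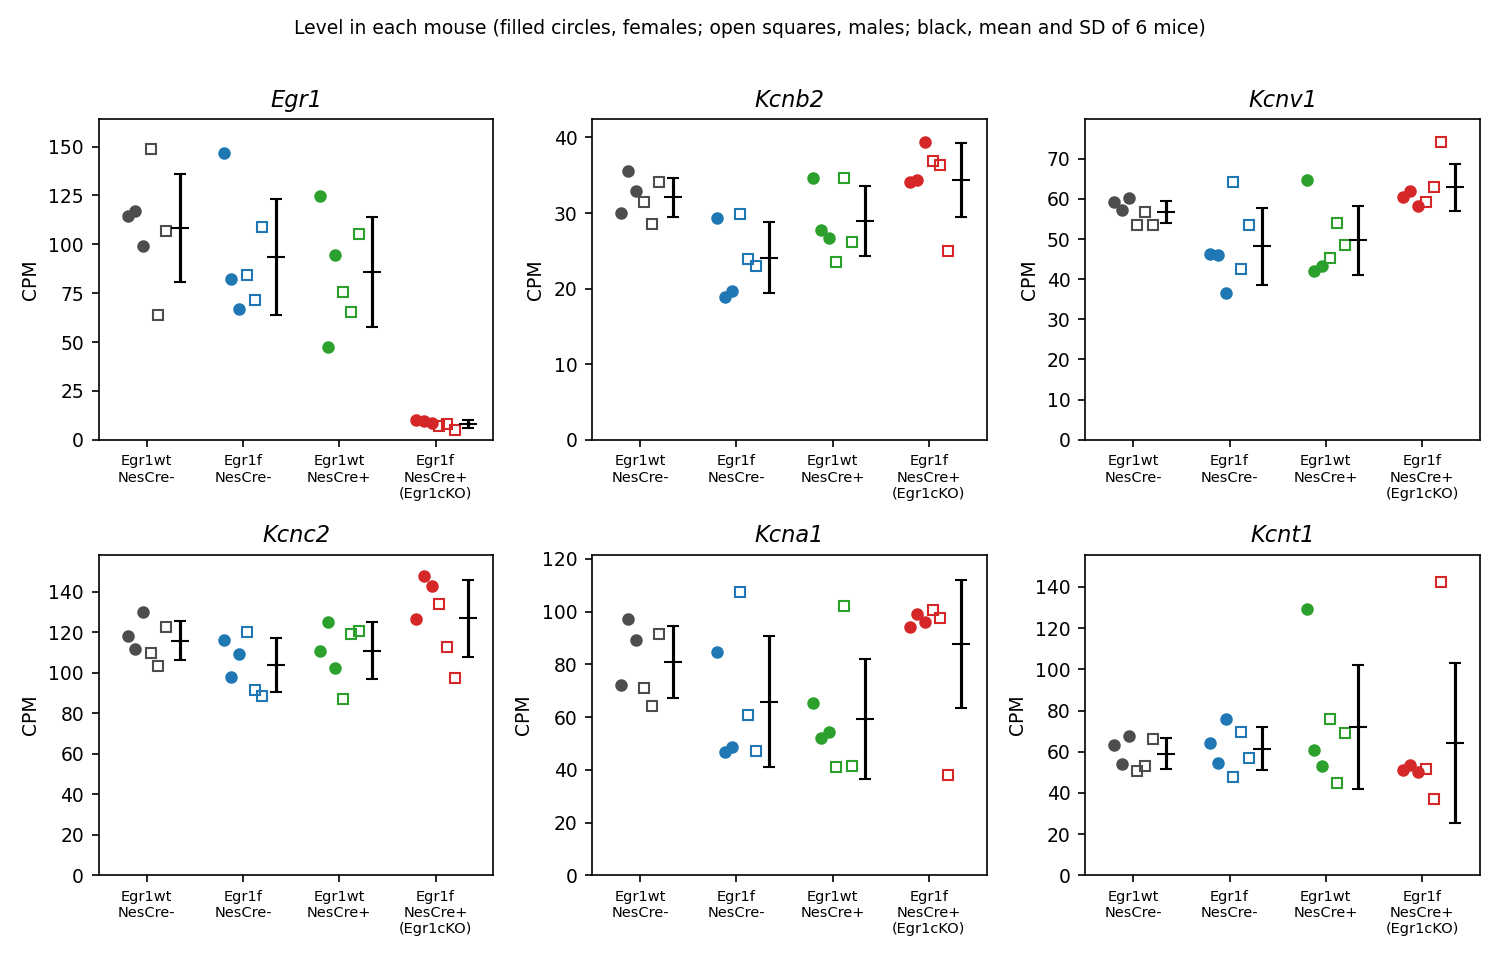
CPM of *Egr1*, *Kcnb2*, *Kcnv1*, *Kcnc2*, *Kcna1* and *Kcnt1* in each mouse by genotype, with females as filled circles, males as open squares, and the mean and SD of 6 mice as bars. The 6 Egr1cKO mice lie between 4.85 and 10.2 CPM for *Egr1*, and male Egr1cKO 3 is at 38.2 CPM for *Kcna1* and at 142 CPM for *Kcnt1*.

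Among the inward rectifiers, *Kcnj12* and *Kcnj14* lay on opposite sides. *Kcnj12* (ENSMUSG00000042529, chromosome 11, 61022564 to 61071131) was at 2.85, 3.74 and 4.77 CPM in floxed control mice and at 3.39, 5.67 and 6.55 CPM in Egr1cKO mice. All Egr1cKO mice except male Egr1cKO 2 were above the floxed control range, and the log2FC was 0.53 (SE 0.18) with an adjusted p of 0.250 by edgeR. *Kcnj14* (ENSMUSG00000058743, chromosome 7, 45816460 to 45824782) was at 1.99, 2.53 and 2.79 CPM in floxed control mice and at 0.890, 1.70 and 2.24 CPM in Egr1cKO mice. All Egr1cKO mice except female Egr1cKO 2 were below the floxed control range, and the log2FC was -0.60 (SE 0.22) with an adjusted p of 0.250 by edgeR. Without male Egr1cKO 3 these values were 0.48 (adjusted p 0.128 by edgeR) and -0.60 (adjusted p 0.132 by edgeR). Over the alternatives the adjusted p ranged from 0.125 to 0.478 for *Kcnj12* and from 0.132 to 0.478 for *Kcnj14*. *Kcnj6*, a G protein gated rectifier, had a log2FC of 0.51, with a median of 27.9 CPM in floxed control and 48.1 CPM in Egr1cKO mice and a lowest Egr1cKO level of 19.1 CPM.

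Of the accessory subunits, *Kcne4* and *Kcnip2* were lower at an unadjusted p under 0.05. *Kcne4* (ENSMUSG00000047330, chromosome 1, 78816758 to 78820028) was at 1.02, 1.52 and 2.04 CPM in floxed control mice and at 0.720, 0.840 and 1.40 CPM in Egr1cKO mice. Here 5 Egr1cKO mice were below all floxed control mice, male Egr1cKO 2 was not, and the log2FC was -0.74 (SE 0.27) with an adjusted p of 0.250 by edgeR. *Kcnip2* (ENSMUSG00000025221, chromosome 19, 45791839 to 45816061) was at 186, 234 and 281 CPM in floxed control mice and at 181, 205 and 237 CPM in Egr1cKO mice, and the ranges overlapped. Its log2FC was -0.21 (SE 0.09) with an adjusted p of 0.284 by edgeR, and -0.17 without male Egr1cKO 3. All 4 *Kcnip* genes tested had a negative log2FC, from -0.21 to -0.08.

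In other subfamilies, the log2FC was positive for all 5 *Kcnq* genes (0.08 to 0.36), all 3 *Kcnd* genes (median 0.18), all 3 *Kcnn* genes tested (median 0.23), 7 of 8 *Kcnh* genes (-0.03 to 0.70), 5 of 6 *Kcna* genes (median 0.22), 8 of 11 *Kcnj* genes (median 0.10) and 7 of 9 *Kcnk* genes (median 0.08). It was positive for 2 of 4 *Kcnc*, 2 of 4 *Kcng*, 1 of 3 *Kcnab* (2 with the size factors of DESeq2, where *Kcnab2* was just above 0), 1 of 3 *Kcns* and 1 of 3 *Kcnmb* genes. Other members higher at an unadjusted p under 0.05 included *Kcnh5* (0.70), *Kcnh7* (0.37), *Kcnc2* (0.29), *Kcnn3* (0.26), *Kcnk9* (0.23), *Kcnq3* (0.20), *Kcnd3* (0.18) and *Kcnk2* (0.18), each with its log2FC. *Kcnc2* is a fast delayed rectifier of interneurons, *Kcnn3* a small-conductance calcium-activated channel and *Kcnq3* a subunit of the M current.

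**Figure D3:**
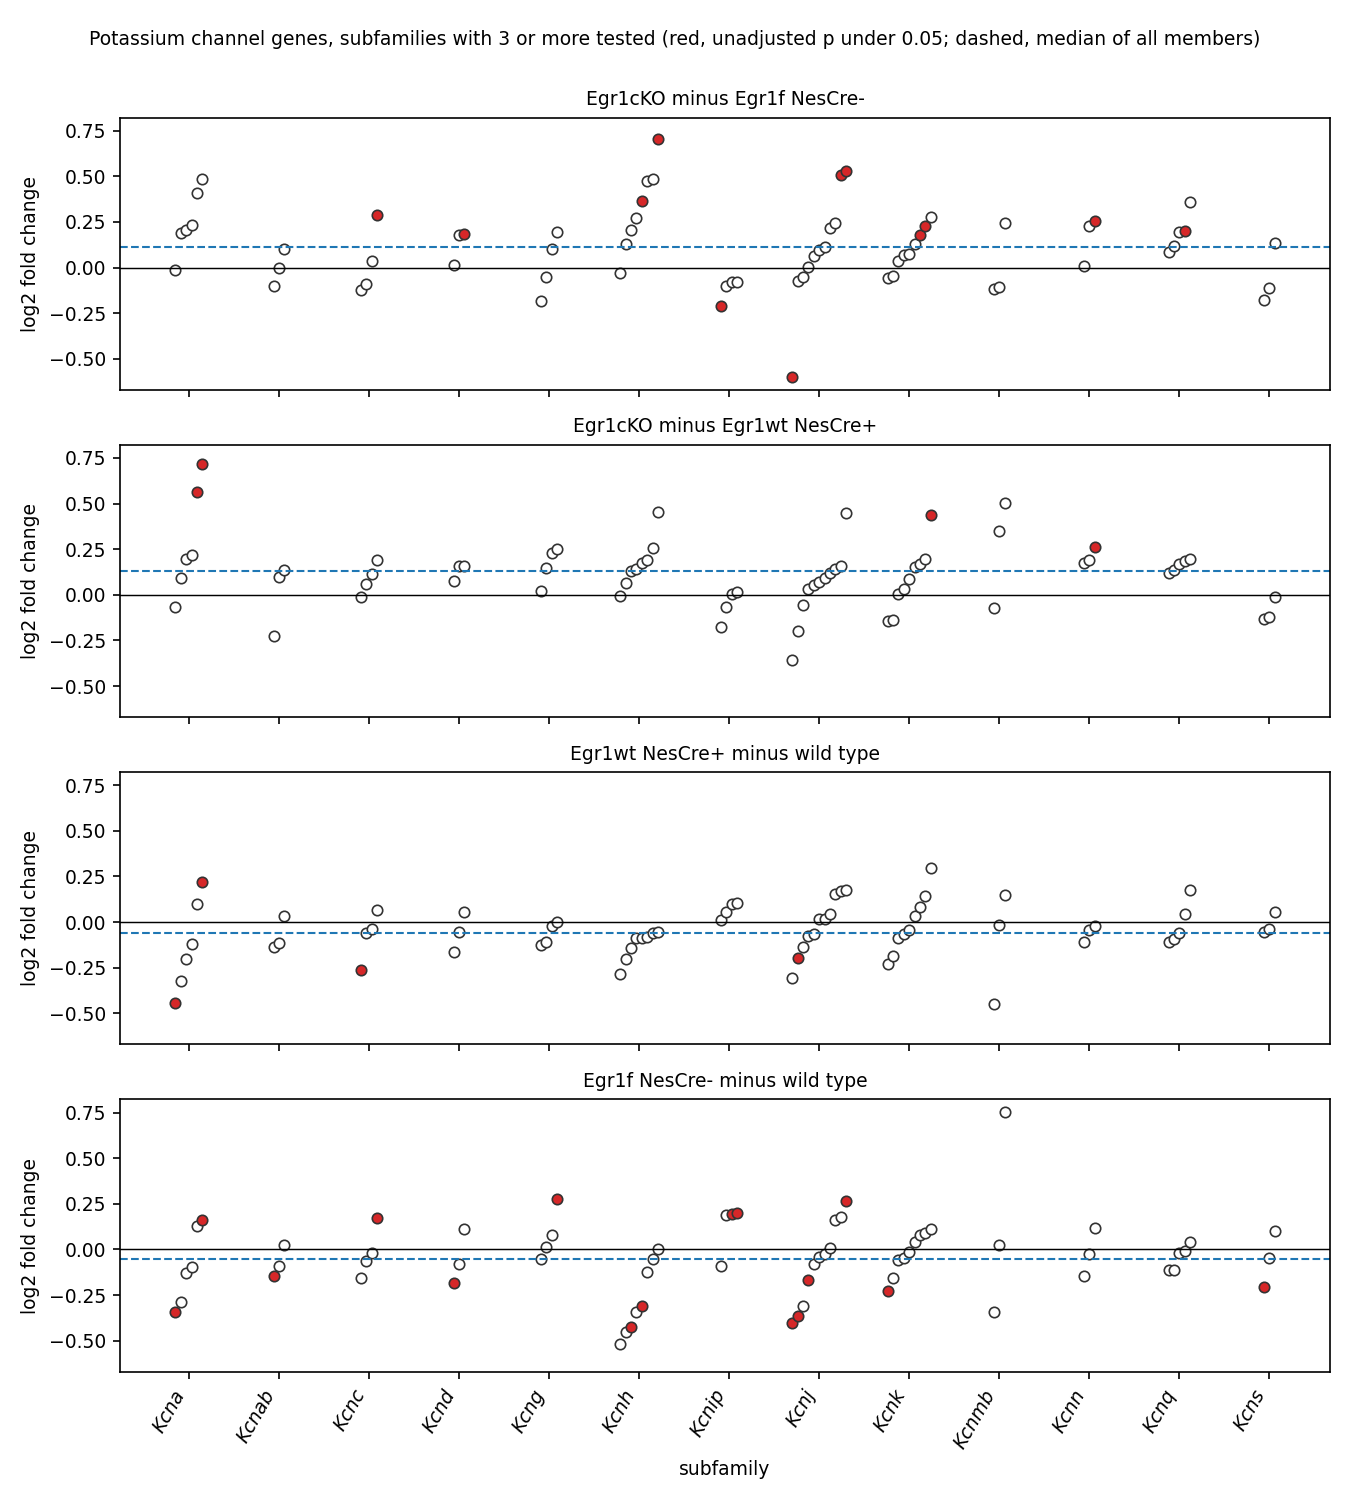
The log2FC of members in the 4 pairwise genotype comparisons, for subfamilies with 3 or more members tested, with 1 point per gene, red points for an unadjusted p under 0.05 and a dashed line at the median of all members tested. The medians are 0.11 (Egr1cKO vs floxed control), 0.13 (Egr1cKO vs Cre control), -0.06 (Cre control vs wild type) and -0.05 (floxed control vs wild type).

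Egr1cKO and Cre control mice all carry Nestin-Cre and differ in the floxed allele, the loss of *Egr1* and the series of mice. This comparison shares the Egr1cKO mice with the previous one. A positive log2FC was found for 58 of 75 members, 77.3% against 46.8% of all genes, and the median was 0.13 against -0.01 for all 17080 genes. By edgeR 0 members were called, where 0.00585% of all genes were, and 0 had groups that did not overlap, against 0.345% of all genes. Under an unadjusted p of 0.05, edgeR gave 5 members higher (6.67%, against 6.6% of all genes) and 0 lower (against 5.69%). DESeq2 called 0 members (against 0.17% of all genes) and gave 7 higher and 0 lower at that p (against 7.2% and 5.85%). The log2FC of the members ranged from -0.36 to 0.72.

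The libraries that stand apart were chosen by their channel gene levels, and leaving them out moved these counts. Male Egr1cKO 3 had 0.543% of its counts on members, against a mean of 0.603% in Egr1cKO mice. In every comparison, fits without these libraries therefore describe how the counts depend on them and do not test the members. The 5 higher members became 21 without male Egr1cKO 3, 11 without female Cre control 1 and 19 without both, and the lower ones 2, 2 and 3. Those higher were 27.6%, 14.7% and 25.3% of the members, against 10.9%, 8.16% and 12.5% of all genes in these fits, and those lower 2.63%, 2.67% and 4%, against 9.18%, 6.98% and 10.1%. Without both, 61 log2FC were positive and 14 negative, with a median of 0.14. The higher count was also 12 without male Cre control 2 (15.8%, against 10.7% of all genes) and 8 without male Egr1cKO 2 (10.7%, against 6.64%). It fell below the share of all genes with 3 without female Cre control 3 (3.95%, against 4.99%), 2 without male Cre control 3 (2.67%, against 4.81%) and 2 without female Egr1cKO 2 (2.63%, against 4.43%). Over all genes, the 1 call became 255 without male Cre control 2, with 0 members among them, and 2 without male Egr1cKO 2.

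*Kcnv1* was at 42.1, 47.0 and 64.8 CPM in Cre control mice, against 58.1, 61.3 and 74.1 CPM in Egr1cKO mice. Of the Cre control mice, 5 lay below all Egr1cKO mice, and female Cre control 1 was the exception at 64.8 CPM. The log2FC was 0.34 (SE 0.10) with an adjusted p of 0.351 by edgeR, 0.43 (adjusted p 0.199) without female Cre control 1 and 0.29 (adjusted p 0.129) without male Egr1cKO 3. The adjusted p ranged from 0.0589 to 0.607 over 20 alternatives.

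The axonal channel genes *Kcna1* and *Kcna3* were the other named members on the higher side. *Kcna1* (ENSMUSG00000047976, chromosome 6, 126640397 to 126646384) was at 41.0, 53.2 and 102 CPM in Cre control mice and at 38.2, 96.8 and 101 CPM in Egr1cKO mice. The groups overlapped through 1 mouse of each, as 5 Egr1cKO mice lay between 94.1 and 101 CPM with male Egr1cKO 3 at 38.2 CPM, and 5 Cre control mice lay between 41.0 and 65.2 CPM with male Cre control 2 at 102 CPM. The log2FC was 0.56 (SE 0.23) with an adjusted p of 0.374 by edgeR. Leaving out male Egr1cKO 3 gave 0.72 (adjusted p 0.0893 by edgeR), leaving out male Cre control 2 gave 0.79 (adjusted p 0.0595 by edgeR) and leaving out female Cre control 1 gave 0.59 (adjusted p 0.292 by edgeR). Over 20 alternatives the adjusted p ranged from 0.0595 to 0.622.

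*Kcna3* (ENSMUSG00000047959, chromosome 3, 107036169 to 107038070) was at 2.32, 3.39 and 7.29 CPM in Cre control mice and at 4.57, 6.59 and 10.3 CPM in Egr1cKO mice. There 4 Cre control mice were below all Egr1cKO mice and 2 Egr1cKO mice above all Cre control mice. The log2FC was 0.72 (SE 0.30) with an adjusted p of 0.373 by edgeR, 0.94 without female Cre control 1 and 0.75 without male Egr1cKO 3. *Kcnk6* and *Kcnn3* were also higher at an unadjusted p under 0.05, with a log2FC of 0.43 and 0.26.

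The members with the smallest p on the lower side were *Kcnip4*, *Kcnab3* and *Kcnj14*, none under an unadjusted p of 0.05. *Kcnip4*, a *Kcnd* partner, was at 34.9, 45.0 and 50.6 CPM in Cre control mice and at 34.6, 39.6 and 42.9 CPM in Egr1cKO mice, with a log2FC of -0.18 (SE 0.09). The accessory subunit *Kcnab3* was at 14.0, 15.0 and 26.0 CPM in Cre control mice and at 11.9, 15.0 and 17.2 CPM in Egr1cKO mice. Its log2FC of -0.22 (SE 0.15) was -0.06 without female Cre control 1, which held the 26.0 CPM. *Kcnj14* was at 1.42, 2.00 and 2.63 CPM in Cre control mice, against 0.890, 1.70 and 2.24 CPM, with a log2FC of -0.36 (SE 0.25). For all 3 genes the groups overlapped.

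By subfamily, the log2FC was positive for all 5 *Kcnq* genes (0.12 to 0.19), all 4 *Kcng* genes (median 0.19), all 3 *Kcnd* genes (median 0.16), all 3 *Kcnn* genes tested (median 0.19), 7 of 8 *Kcnh* genes (median 0.16), 5 of 6 *Kcna* genes (median 0.21), 8 of 11 *Kcnj* genes (median 0.07) and 7 of 9 *Kcnk* genes (median 0.09). All 3 *Kcns* genes were negative, from -0.13 to -0.01. Of the *Kcnip* genes, 2 of 4 were positive.

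Cre control and wild type mice were compared for the Nestin-Cre transgene without the floxed allele, and the Cre control mice are those of the previous comparison. Of 75 members, 49 had a negative and 26 a positive log2FC, 34.7% positive against 53.9% of all genes, with a median of -0.06 against 0.01 for all 17167 genes. The members ranged from -0.71 to 0.30. By edgeR 0 members and 0% of all genes were called, and 0 members had groups that did not overlap, against 0.245% of all genes. With unadjusted p under 0.05, edgeR counted 1 member higher (1.33%, against 3.48% of all genes) and 4 lower (5.33%, against 2.9%). DESeq2 called 0 members (against 0.111% of all genes) and gave 1 higher and 6 lower at that p (against 3.52% and 3.31%).

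The 4 lower members became 8 without female Cre control 1 (10.7%, against 4.11% of all genes) and 12 without male Cre control 2 (15.8%, against 9.02%). They became 2 without female Cre control 2 (2.63%, against 2.62%) or male Cre control 3 (2.63%, against 2.05%), and 1 without female wild type 2 (1.33%, against 1.73%). The 1 higher member became 3 without male Cre control 2 (3.95%, against 7.2%), 2 without female wild type 3 (2.67%, against 2.66%) and 0 without any one of female Cre control 1, 2 or 3, male Cre control 3, or male wild type 1 or 2 (against 2.73% to 3.71%). Without female Cre control 1, 18 log2FC were positive and 57 negative, with a median of -0.09. Without male Cre control 2, edgeR called 111 genes, among them *Kcna1* and *Kcnj6* (2.63% of members, against 0.636% of all genes), and without male Cre control 3 it called 2 genes.

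*Kcnj3* (ENSMUSG00000026824, chromosome 2, 55435970 to 55598145), a G protein gated inward rectifier, was at 178, 189.9 and 204 CPM in wild type mice and at 138, 168 and 198 CPM in Cre control mice. Of the Cre control mice, 4 were below all wild type mice. The log2FC was -0.20 (SE 0.08) with an adjusted p of 0.729 by edgeR, and -0.16 without female Cre control 1. *Kcne4* had a log2FC of -0.71, with a median of 1.27 CPM in wild type and 0.695 CPM in Cre control mice.

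*Kcna1* was at 64.1, 80.8 and 97.3 CPM in wild type mice, against 41.0, 53.2 and 102 CPM in Cre control mice. Here 4 Cre control mice were below all wild type mice, and male Cre control 2 was the highest of the 12. The log2FC was -0.44 (SE 0.18) with an adjusted p of 0.729 by edgeR. It was -0.67 with an adjusted p of 0.0376 by edgeR without male Cre control 2 and -0.48 with an adjusted p of 0.620 by edgeR without female Cre control 1, and the adjusted p ranged from 0.0376 to 0.910 over 19 alternatives. *Kcnj6* was at 36.9, 40.1 and 49.1 CPM in wild type and at 20.7, 30.7 and 62.6 CPM in Cre control mice, and its log2FC without male Cre control 2 was -0.58 with an adjusted p of 0.0376 by edgeR.

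On the higher side, *Kcna6* (ENSMUSG00000038077, chromosome 6, 126708329 to 126740674), an axonal subunit whose reads may include an antisense gene, was at 39.6, 46.2 and 51.1 CPM in wild type and at 43.1, 54.7 and 65.1 CPM in Cre control mice, 4 of them above all wild type mice. Its log2FC was 0.22 (SE 0.10) with an adjusted p of 0.729 by edgeR, and 0.15 without female Cre control 1. *Kcnt1* (ENSMUSG00000058740, chromosome 2, 25863734 to 25918273) was at 50.6, 58.8 and 67.4 CPM in wild type and at 44.9, 65.0 and 129 CPM in Cre control mice. Its log2FC of 0.30 (SE 0.19) was 0.04 without female Cre control 1. *Kcnk13*, a leak channel known from microglia, had medians of 5.79 and 6.53 CPM and a log2FC of 0.30 (SE 0.17), or 0.18 without female Cre control 1.

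All 8 *Kcnh* genes had a negative log2FC, from -0.29 to -0.06, as had all 4 *Kcng* genes (median -0.06) and all 3 *Kcnn* genes tested (median -0.04). All 4 *Kcnip* genes were positive, from 0.01 to 0.10. Of the *Kcna* genes 2 of 6 were positive (median -0.16), of the *Kcnq* genes 2 of 5 (median -0.06), of the *Kcnj* genes 6 of 11 (median 0.02) and of the *Kcnk* genes 4 of 9 (median -0.04).

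Floxed control and wild type mice were compared for the floxed allele without Cre, and they also differ in the series of mice. The comparison shares the floxed control mice with the first one and the wild type mice with the third. Of 75 members, 48 had a negative and 27 a positive log2FC, 36% positive against 50.9% of all genes, with a median of -0.05 against 0.00 for all 17393 genes. With edgeR 0 members and 0% of all genes were called, and 0 members had groups that did not overlap, against 0.282% of all genes. At an unadjusted p under 0.05, edgeR gave 6 members higher (8%, against 5.81% of all genes) and 13 lower (17.3%, against 4.43%). A shared fit of 24 mice gave 2 higher and 6 lower at that p, and its share of all genes is not given here. DESeq2 called 0 members (against 0.00575% of all genes) and gave 6 higher and 13 lower at that p (against 5.93% and 4.88%). The members ranged from -0.52 to 0.75. The 13 lower members became 8 without female wild type 2 (10.5%, against 3.3% of all genes) or male floxed control 2 (10.4%, against 3.09%), 7 without female floxed control 2 (9.21%, against 2.51%) and 6 without female floxed control 3 (7.89%, against 2.95%). They became 19 without male floxed control 1 (24.7%, against 8.84%) and 17 without female floxed control 1 (22.4%, against 7.77%). Without male wild type 2 they became 15 (19.7%, against 5.41%). The 6 higher ones became 2 without female wild type 1 (2.6%, against 5.09%) and 3 without female floxed control 1 (3.95%, against 8.57%), below the share of all genes.

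*Kcnb2* was at 28.5, 32.1 and 35.5 CPM in wild type mice and at 18.9, 23.5 and 29.9 CPM in floxed control mice. Of the floxed control mice, 4 were below all wild type mice. The log2FC was -0.41 (SE 0.11) with an adjusted p of 0.483 by edgeR. The leak channel *Kcnk9* (ENSMUSG00000036760, chromosome 15, 72501089 to 72546340) was at 108.5, 123 and 126 CPM in wild type and at 88.1, 101.6 and 124 CPM in floxed control mice, 3 of them below all wild type mice, with a log2FC of -0.23 (SE 0.08). *Kcnh4* (ENSMUSG00000035355, chromosome 11, 100740376 to 100759942) was at 4.87, 6.22 and 7.04 CPM in wild type and at 2.94, 4.55 and 5.75 CPM in floxed control mice, 4 of them below all wild type mice, with a log2FC of -0.42 (SE 0.15). The adjusted p of both was 0.483 by edgeR.

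*Kcnip3* (ENSMUSG00000079056, chromosome 2, 127456498 to 127522094), a calcium-binding *Kcnd* partner and transcriptional repressor, was at 68.7, 78.4 and 87.8 CPM in wild type and at 73.6, 91.9 and 98.5 CPM in floxed control mice. With 4 floxed control mice above all wild type mice, its log2FC was 0.20 (SE 0.07) and its adjusted p 0.483 by edgeR. *Kcna6* was at 49.0, 51.0 and 54.4 CPM in floxed control mice, and 5 wild type mice lay below all of them. Its log2FC was 0.16 (SE 0.06) with an adjusted p of 0.483 by edgeR. The *Kcnb* modifier *Kcng4* (ENSMUSG00000045246, chromosome 8, 119623854 to 119635680) was at 5.55, 6.11 and 8.36 CPM in wild type and at 7.34, 7.82 and 8.60 CPM in floxed control mice, 4 wild type mice being below all of these, with a log2FC of 0.28 (SE 0.12).

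Other members lower at an unadjusted p under 0.05 included *Kcnj2* (-0.40), *Kcnj6* (-0.37), *Kcna4* (-0.34), *Kcnh7* (-0.31), *Kcnv1* (-0.23), *Kcns2* (-0.20), *Kcnd2* (-0.19), *Kcnj3* (-0.17) and *Kcnab1* (-0.14), each with its log2FC, and the other higher ones were *Kcnj16* (0.27), *Kcnip2* (0.19) and *Kcnc4* (0.17). By subfamily, 1 of 8 *Kcnh* genes was positive (median -0.33), 2 of 6 *Kcna* genes (median -0.11), 4 of 11 *Kcnj* genes (median -0.04) and 3 of 4 *Kcnip* genes (median 0.19).

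The 6 Egr1cKO mice were next compared with the 18 other mice together, which include all of the mice above. Of 79 members tested among 18433 genes, 60 had a positive and 19 a negative log2FC, 75.9% positive against 48.2% of all genes. The median was 0.11 against -0.01 for all genes. The edgeR test called 0 members, where 0.00543% of all genes were. Under an unadjusted p of 0.05, edgeR gave 10 members higher (12.7%, against 8.11% of all genes) and 2 lower (2.53%, against 7%). DESeq2 called 0 members (against 0.244% of all genes) and gave 10 higher and 2 lower at that p (against 7.86% and 7.74%). Without both libraries that stand apart, 20 members were higher (25.3%, against 11.4% of all genes) and 5 lower (6.33%, against 11.2%) at that p, with a median of 0.11 and 59 positive values, and edgeR called 218 genes with 0 members among them. Without male Egr1cKO 3 alone, 22 were higher (27.8%, against 11.3% of all genes) and 4 lower (5.06%, against 10.4%), and 215 genes were called. The higher count was 5 without female Egr1cKO 2 (6.33%, against 5.6% of all genes) and 4 without female Egr1cKO 3 (5.06%, against 5.18%). The lower count was 1 without male Egr1cKO 1 or female Egr1cKO 1 (1.27%, against 5.5% and 5.81%) and 0 without female Egr1cKO 3 (against 5.03%). Over all genes, 8 were called without male Egr1cKO 2 and 3 without male Egr1cKO 1.

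*Kcnv1* had a log2FC of 0.29 (SE 0.09) with an adjusted p of 0.201 by edgeR against the 18 mice, and 0.24 with an adjusted p of 0.140 by edgeR without male Egr1cKO 3. Its adjusted p ranged from 0.0923 to 0.461 over 13 alternatives. *Kcnj14* had a log2FC of -0.46 (SE 0.18) with an adjusted p of 0.241 by edgeR, and the adjusted p ranged from 0.145 to 0.506 over 13 alternatives. *Kcna3* (0.53), *Kcnk6* (0.37), *Kcnb2* (0.28), *Kcnn3* (0.26), *Kcnc2* (0.21), *Kcnk2* (0.17), *Kcnq3* (0.16) and *Kcnd3* (0.15) were other higher members, each with its log2FC. *Kcnn4*, at few counts, had the lowest log2FC, -1.36. All 6 *Kcna*, all 8 *Kcnh* and all 5 *Kcnq* genes had a positive log2FC here, with medians of 0.21, 0.17 and 0.16.

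The interaction of the floxed allele with Cre, fitted over all 24 mice with sex as a further term, measures how far Egr1cKO mice depart from the sum of the effects of both control alleles. Of 79 members, 54 had a positive and 25 a negative interaction, 68.4% positive against 47.4% of all genes. The median was 0.19 against -0.02 for all 18766 genes. Among the 26 most abundant members it was 0.20, against 0.07 for all genes in their range. No fold minimum was set. With the filter on low counts, 0 members were called by edgeR, where 0.00533% of all genes were. With no filter, edgeR called 1173 genes, with 12 members among them (15.2%, against 3.2% of all genes). In that fit the SE of *Kcnb2*, *Kcnv1* and *Kcne2* were smaller. The counts that follow are with the filter. With unadjusted p under 0.05, edgeR counted 18 members above 0 (22.8%, against 9.99% of all genes) and 2 below (2.53%, against 8.84%). DESeq2 called 1 member (1.27%, against 1.65% of all genes), *Kcnj3* (log2 value 0.33, adjusted p 0.0498 by DESeq2). It gave 19 above and 2 below at an unadjusted p under 0.05 (against 9.99% and 9.55% of all genes). Without both libraries that stand apart, 23 were above (29.1%, against 12.8% of all genes) and 3 below (3.8%, against 13%), with a median of 0.17. The 2 below were 5 without male Egr1cKO 3 (6.33%, against 12.2% of all genes) and 1 without male Egr1cKO 2, female Egr1cKO 1 or female Egr1cKO 3 (1.27%, against 9.11%, 9.04% and 7.84%).

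For *Kcnv1* the interaction was 0.59 (SE 0.15) with an adjusted p of 0.152 by edgeR, and 0.53 with an adjusted p of 0.0546 by edgeR without male Egr1cKO 3. Over 12 alternatives its adjusted p ranged from 0.000123, with no filter on low counts, to 0.244. *Kcnb2* had an interaction of 0.66 (SE 0.17) with an adjusted p of 0.152 by edgeR. With no filter on low counts its SE was 0.13 and its adjusted p 0.000116 by edgeR. Both genes had their lowest median in floxed control mice, and the interaction uses the same mice as the pairwise values. Larger values among the members above 0 at an unadjusted p under 0.05 were those of *Kcna1* (0.86), *Kcnj6* (0.83) and *Kcnmb2* (0.70), and smaller ones included *Kcnh7* (0.46), *Kcna4* (0.45), *Kcnd2* (0.36) and *Kcnc2* (0.36).

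*Kcne2* had an interaction of -3.72 (SE 1.54) with an adjusted p of 0.198 by edgeR. It ranged from -5.66 to -1.11 over 12 alternatives, with an adjusted p from 3.55e-11 to 0.639. The lowest adjusted p came from edgeR with no filter on low counts, where the SE was 0.487. Of the 5 mice with high choroid plexus markers, 2 were floxed control, 2 were Cre control and 1 was an Egr1cKO mouse, and 6 of the 8 markers had an interaction below 0 at an unadjusted p under 0.05 by edgeR and 5 by DESeq2, which called Ttr. No alternative left out all 5 of these mice. By subfamily, all 8 *Kcnh* genes (median 0.43), all 5 *Kcnq* genes (median 0.17) and 5 of 6 *Kcna* genes (median 0.39) were above 0, with 7 of 10 *Kcnk* genes (median 0.25) and 8 of 12 *Kcnj* genes (median 0.15). All 4 *Kcnip* genes were below 0 (median -0.18). Beside these, 3 of 4 oligodendrocyte markers had an interaction below 0 at an unadjusted p under 0.05 by edgeR and by DESeq2, with a median of -0.36, and 1 of 6 markers of hippocampal neurons by edgeR and 2 by DESeq2 lay above 0. DESeq2 called Mbp among the former and Wfs1 among the latter, and edgeR called neither. Of all genes, 8.84% lay below 0 and 9.99% above 0 at an unadjusted p under 0.05 by edgeR. Of 5 astrocyte markers, 2 were above 0 at that p by edgeR and by DESeq2. The part of these lists in the channel values was not tested.

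The 12 female and 12 male mice were compared over all genotypes. Of 75 members, 49 had a positive log2FC, higher in females, 65.3% against 49.4% of all genes. The median was 0.04 against -0.00 for all 17124 genes, and the members ranged from -0.34 to 0.29. By edgeR 0 members were called, where 0.0701% of all genes were. At an unadjusted p under 0.05, edgeR gave 10 members higher in females (13.3%, against 2.83% of all genes) and 0 lower (against 2.83%). DESeq2 called 0 members (against 0.0993% of all genes) and gave 10 higher and 0 lower at that p (against 3.11% and 2.96%). The higher count was 5 without male Egr1cKO 2 (6.67%, against 2.45% of all genes), and 6 without any one of male wild type 1 or 2, female Cre control 1, male Cre control 2, female Egr1cKO 1 or 2, or female floxed control 1 (8%, against 2.19% to 3%). The lower count was 4 without female Cre control 1 (5.33%, against 3.12% of all genes), 2 without any one of female wild type 1, male Cre control 2, female Egr1cKO 1 or female floxed control 3 (2.67%, against 2.55% to 3.22%), and 1 without any one of female wild type 2, male Egr1cKO 1, 2 or 3, or female Egr1cKO 2 (1.33%, against 2.4% to 3.41%). Without both libraries that stand apart 3 members were lower (4%, against 2.97%) and the median was 0.03.

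*Kcnn1* (ENSMUSG00000002908, chromosome 8, 70842049 to 70863258), a small-conductance calcium-activated channel, had female and male means of 18.1 and 16.1 CPM in wild type, 19.4 and 17.8 CPM in floxed control, 16.9 and 16.2 CPM in Cre control, and 21.4 and 16.0 CPM in Egr1cKO mice. The female mean was the higher one in each of the 4 genotypes. The log2FC was 0.20 (SE 0.06) with an adjusted p of 0.649 by edgeR. The other higher members were *Kcnj10* (0.29), *Kcnk13* (0.27), *Kcnj16* (0.21), *Kcnh2* (0.20), *Kcnn3* (0.18), *Kcnc4* (0.16), *Kcnd1* (0.16), *Kcna6* (0.15) and *Kcnip3* (0.15), each with its log2FC. Of 5 astrocyte markers 2 were also higher in females at an unadjusted p under 0.05, by edgeR and by DESeq2 (against 2.83% and 3.11% of all genes). Of the choroid plexus markers, 4 were lower in females at that p by DESeq2, which called Ttr, and 0 by edgeR (against 2.96% and 2.83% of all genes). The part of either list in the channel values was not tested. On the lower side, *Kcnmb4*, a partner of *Kcnma1* whose reads may include antisense genes, had the smallest p, with a log2FC of -0.31 (SE 0.16) and an adjusted p of 0.901 by edgeR.

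Whether the difference between Egr1cKO and floxed control mice depends on sex was tested as an interaction over 19742 genes. Of 79 members, 57 had a positive value, a more positive difference in females, 72.2% against 50.0% of all genes. The median was 0.15 against -0.00 for all genes. Calls by edgeR numbered 0 among members and 0% of all genes. Under an unadjusted p of 0.05, edgeR gave 0 members above 0 (against 1.21% of all genes) and 2 below (2.53%, against 3.27%), *Kcnu1* and *Kcnn4*. DESeq2 called 0 members (against 0.0152% of all genes) and gave 0 above and 2 below at that p (against 1.34% and 3.62%). The count above 0 was 5 without male Egr1cKO 1 (6.33%, against 1.78% of all genes), 3 without female Egr1cKO 3 or male Egr1cKO 3 (3.8%, against 1.28% and 1.45%), 1 without female Egr1cKO 1 or male Egr1cKO 2 (1.27%, against 1.14% and 1.68%), and 3 without both libraries that stand apart (3.8%, against 1.52%). The count below 0 was 4 without male Egr1cKO 2 (5.06%, against 3.24% of all genes) and 1 without female Egr1cKO 1, female Egr1cKO 3 or male Egr1cKO 3 (1.27%, against 2.61%, 3.31% and 2.31%).

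*Kcnu1* (ENSMUSG00000031576, chromosome 8, 25849623 to 25937939), a channel known from sperm, was at 2.69, 2.71 and 3.50 CPM in the 3 female floxed control mice and at 1.79, 1.92 and 2.12 CPM in the 3 female Egr1cKO mice. In males it was at 1.42, 1.70 and 2.21 CPM in floxed control and at 2.03, 3.30 and 3.48 CPM in Egr1cKO mice. The female groups did not overlap, with Egr1cKO below, and the male groups overlapped through male Egr1cKO 2 at 2.03 CPM. The interaction was -1.33 (SE 0.43) with an adjusted p of 0.960 by edgeR. On the other side, *Kcnn1* had an interaction of 0.29 (SE 0.16) with an adjusted p of 1.00 by edgeR.

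Proteins that bind or traffic these channels were taken as a list of 24 partner genes, all 24 found, with sums of 7891 to 9551 CPM per mouse. By edgeR 0 of the 23 tested were called in any of the 8 comparisons, and DESeq2 called 1, Cntnap2 in the interaction. In Egr1cKO against floxed control mice 4 were higher at an unadjusted p under 0.05, the axon initial segment anchor Ank3 (0.33), the *Kcna* clustering protein Cntnap2 (0.32), the *Kcnq* scaffold Akap5 (0.23) and Adam23 (0.19), and Lrrc26 was lower (-0.34). At that p edgeR gave 8.14% of all genes higher and 8.04% lower. Against Cre control mice 3 partners were higher, Ank3 (0.36), Cntnap2 (0.32) and the *Kcnd* partner Dpp6 (0.21), where 6.6% of all genes were higher. In Cre control against wild type mice Lrrc38 (1.01), at a mean of 0.765 CPM over 24 mice, was higher and the *Kcnb* partner Amigo1 (-0.12) lower (against 3.48% and 2.9% of all genes). In floxed control against wild type mice Cntnap2 (-0.20) was lower (against 4.43%).

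Potassium pumps and cotransporters were taken as a list of 14 genes, all 14 found, with sums of 6644 to 8229 CPM per mouse. By edgeR and by DESeq2 0 were called in the 8 comparisons. At an unadjusted p under 0.05, the neuronal cotransporter Slc12a5 was higher in Egr1cKO mice against floxed control mice by edgeR (log2FC 0.19), where 8.14% of all genes were higher. Against Cre control mice 2 were higher, Slc12a5 (0.16) among them, and Atp1b3 (-0.18) was lower (against 6.6% and 5.69% of all genes). In the comparisons of Cre control and of floxed control with wild type mice 0 were under that p.

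Markers of cell types were followed beside the channel genes, and their part in the channel values was not tested. For all these lists, counts at an unadjusted p under 0.05 stand against shares of all genes by edgeR. In Egr1cKO mice 8.14% of all genes were higher and 8.04% lower against floxed control, and 6.6% and 5.69% against Cre control mice. Against wild type mice these shares were 3.48% and 2.9% in Cre control and 5.81% and 4.43% in floxed control mice. Of 5 astrocyte genes (5 found, Slc1a3 most abundant, sums of 1047 to 1584 CPM), Aqp4 rose in Egr1cKO against floxed control mice with a log2FC of 0.82 (SE 0.11) and an adjusted p of 0.00507 by edgeR, and the mean sum was 1446 CPM in Egr1cKO, 1228 in floxed control, 1329 in Cre control and 1242 CPM in wild type mice. At an unadjusted p under 0.05 by edgeR, 1 of the 5 was higher in Egr1cKO against floxed control and 2 against Cre control mice. Against wild type mice, 2 were higher in Cre control and 0 in floxed control mice. By edgeR no gene of these marker lists other than Aqp4 was called in the 4 pairwise comparisons. DESeq2 called Aqp4 and the meningeal gene Col1a2 in Egr1cKO against floxed control mice, and the astrocyte gene Gfap and the choroid plexus gene Ttr in Cre control against wild type mice, all of them higher. Of 4 oligodendrocyte genes (4 found, Mbp most abundant, 2655 to 4967 CPM), 2 were lower in Egr1cKO against floxed control and 3 against Cre control mice at an unadjusted p under 0.05. Of 4 microglia genes (4 found, Csf1r most abundant, 145 to 233 CPM), 2 and 1 were higher in these comparisons. Of 4 endothelial genes (4 found, Flt1 most abundant, 52.0 to 124 CPM), 1 and 2 were higher, and of 5 mural genes (5 found, Rgs5 most abundant, 133 to 193 CPM), 1 and 1 were higher and 1 and 0 lower.

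The 6 markers of hippocampal neurons (6 found, Slc17a7 most abundant) summed to between 1859 CPM, in female Cre control 1, and 2600 CPM. At an unadjusted p under 0.05, 1 was higher in Egr1cKO mice in both comparisons, 1 was lower in Cre control and 2 in floxed control mice against wild type. Of 5 interneuron genes (5 found, Gad1 most abundant, 491 to 657 CPM), 1 was higher and 1 lower in Egr1cKO mice in both comparisons. Of 5 meningeal genes (5 found, Dcn most abundant, 17.7 to 94.4 CPM), 2 were higher in Egr1cKO against floxed control mice, and of 4 thalamic genes (4 found, Prkcd most abundant, 45.3 to 70.2 CPM) 0 were under that p in the 4 pairwise comparisons. Of the striatal genes 1 was higher in Egr1cKO against Cre control mice and 2 in floxed control against wild type mice. Of the choroid plexus genes 4 of 5 tested were higher in Cre control and 6 of 7 in floxed control against wild type mice by edgeR. By DESeq2 these counts were 2 and 6. The sample labels name an endocrine cell type, but 7 of 8 pituitary endocrine markers were found, with Tshb most abundant and sums of 1.00 to 3.84 CPM, and Gh, Prl, Pomc, Cga, Fshb and Pou1f1 were each under 1 CPM in wild type mice.

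Promoters were searched for the EGR1 binding motif because *Egr1* is the gene lost. A window of 300 bases per gene start was available in RefSeq (GRCm38.p6) for 56 of the 79 members, 80 promoters in all. GCGTGGGCG was found on either strand in 0 of these 80, against 201 of 32851 promoters of all genes (0.612%), and GCGGGGGCG in 4 (5%), against 955 (2.91%). The letters overlap those of other GC-rich motifs, and a match describes the sequence without showing binding. The 4 promoters with a match are shown 5′ to 3′ on the strand of the gene, with the motif or its reverse complement in capitals, for *Kcna4* (chr2:107290339-107290638, plus strand), *Kcng3* (chr17:83631846-83632145, minus strand), *Kcnk2* (chr1:189343304-189343603, minus strand) and *Kcnt2* (chr1:140245468-140245767, plus strand). *Kcng3* held 2 matches and the others 1 each.
Kcna4: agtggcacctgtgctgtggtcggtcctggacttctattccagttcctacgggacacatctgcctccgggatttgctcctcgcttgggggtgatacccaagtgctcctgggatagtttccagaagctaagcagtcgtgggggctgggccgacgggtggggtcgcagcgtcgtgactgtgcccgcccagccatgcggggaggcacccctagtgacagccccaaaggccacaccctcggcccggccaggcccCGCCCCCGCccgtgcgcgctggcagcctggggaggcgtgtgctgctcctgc
Kcng3: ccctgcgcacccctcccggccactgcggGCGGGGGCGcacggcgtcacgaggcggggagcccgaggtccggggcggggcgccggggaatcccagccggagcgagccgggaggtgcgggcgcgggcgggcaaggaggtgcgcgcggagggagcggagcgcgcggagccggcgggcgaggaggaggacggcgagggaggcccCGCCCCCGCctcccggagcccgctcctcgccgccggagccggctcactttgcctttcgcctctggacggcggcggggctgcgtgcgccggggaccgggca
Kcnk2: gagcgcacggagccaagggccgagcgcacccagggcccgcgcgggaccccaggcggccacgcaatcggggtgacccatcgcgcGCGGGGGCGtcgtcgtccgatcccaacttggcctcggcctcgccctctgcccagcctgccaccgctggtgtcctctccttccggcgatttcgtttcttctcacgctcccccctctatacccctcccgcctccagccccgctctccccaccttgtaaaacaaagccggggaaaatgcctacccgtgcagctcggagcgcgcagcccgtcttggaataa
Kcnt2: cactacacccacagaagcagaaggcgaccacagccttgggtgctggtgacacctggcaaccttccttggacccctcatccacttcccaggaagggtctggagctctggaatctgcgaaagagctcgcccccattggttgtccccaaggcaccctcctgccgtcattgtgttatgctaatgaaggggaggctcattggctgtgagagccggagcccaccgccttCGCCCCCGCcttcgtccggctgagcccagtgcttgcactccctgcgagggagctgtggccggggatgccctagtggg
In Egr1cKO against floxed control mice the log2FC was 0.23 for *Kcna4*, an A-type channel, 0.19 for *Kcng3*, 0.18 for *Kcnk2*, a mechanosensitive leak channel, and 0.19 for *Kcnt2*, and only *Kcnk2* had an unadjusted p under 0.05 by edgeR. Against Cre control mice the values were 0.09, 0.15, 0.20 and 0.03 in the same order, none under that p by edgeR.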

How the data were processed

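Counts per gene, raw and whole numbers, were deposited by the authors for 24 mice in a table of 36605 genes. The submitters' processing notes name Trim Galore 3.8.2, FastQC, STAR 2.7.9 and GRCm38, and the study's methods give other versions of Trim Galore and STAR. The annotation used for counting is not given in the sources used here, and symbols, coordinates and exon lengths were taken from GENCODE M21 by Ensembl identifier (36493 genes with a symbol).

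Each comparison was fitted on the genes passing filterByExpr (minimum count 10) with edgeR 4.0.16 in R 4.3.3, using TMM normalization and its quasi-likelihood test. P-values were adjusted by Benjamini-Hochberg over all genes tested. Calls needed a fold change of 1.2 or more and an adjusted p no higher than 0.05, with no fold minimum for interactions. SE was taken as the absolute log2FC over the root of the F statistic. CPM used TMM over 24 mice and 19742 genes. The alternatives were DESeq2 1.42.0, its size factors, no filter, no fold minimum, sex or genotype as a covariate, a shared fit of 24 mice, a replicate block and leaving out each mouse (only the Egr1cKO mice against the 18 other mice and in interactions). The edgeR fits were tested on simulated data.

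Members and lists were chosen with earlier results of these data known. Named were *Egr1*, members called, the 3 members higher and the 3 lower with the smallest unadjusted p in each pairwise comparison (1 each way in the others), the most abundant members, members with well known roles, and those nearest the count minimum. Other members at an unadjusted p under 0.05 were named after their values were seen. Some members and listed genes are not reported here. The lists were channel partners, potassium transport, and markers of hippocampal neurons, interneurons, astrocytes, oligodendrocytes, microglia, endothelial, mural, choroid plexus, meningeal, thalamic, striatal and pituitary cells.

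Replicates of a group and sex differed by more than sampling noise in all 24 pairs (chi-square per degree of freedom 4.68 to 37.9), and each was counted as a separate mouse. Total counts ranged from 18025168 to 34955004 per mouse.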

Additional observations from a re-analysis of the deposited data

Results flagged for a closer look

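For 24 genes and for the sum over members, the level in each genotype was checked for a mouse far from the other 5, by the gap to its nearest neighbour as a share of the whole range, with Dixon's 95% critical value as the limit. Of 100 groups, 9 passed, and chance passes about 1 in 20 groups.

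Male Egr1cKO 3 accounted for 5 of the 9. *Kcna1* was at 38.2 CPM there, with the next Egr1cKO mouse at 94.09 CPM. *Kcnb2* was at 25.04 CPM, with the next at 34.12 CPM. *Kcnh4* was at 14.56 CPM, with the next at 4.624 CPM, *Kcnt1* at 142.3 CPM, with the next at 53.44 CPM, and *Kcnv1* at 74.15 CPM, with the next at 63.06 CPM. This mouse had the highest sum of striatal markers, 115 CPM, and the lowest of choroid plexus markers, 30.2 CPM, and the part of either in these levels was not tested.

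Female Cre control 1 accounted for 3. *Kcne2* was at 10.02 CPM, with the next Cre control mouse at 1.715 CPM, *Kcnip2* at 143.4 CPM, with the next at 218.8 CPM, and *Kcnt1* at 129.2 CPM, with the next at 76.04 CPM. The last of the 9 was *Kcne2* in male Egr1cKO 2, at 7.406 CPM with the next at 0.3919 CPM. Both mice were among the 5 with the highest sums of choroid plexus markers, whose part was not tested.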

How the results depend on the processing

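The counts, the summed levels and the genes named by rule in each comparison were recomputed under the alternatives. For the genes named by rule, 657 values stayed on their side of the threshold and 4 passed it (*Kcnb2* by DESeq2, *Kcna1* without male Cre control 2, *Kcnv1* and *Kcne2* with no filter), and none of these changed direction. Other members that passed were *Kcnj6* in Cre control vs wild type without male Cre control 2, *Kcnj3* in the interaction by DESeq2, and those given below with no filter. Other members that changed direction under DESeq2 were *Kcnab2* in Egr1cKO vs floxed control, also with its size factors, and *Kcne2* in Egr1cKO vs 18 mice. Of counts, 441 stayed within 1.5 times and 123 moved, and 16 summed levels moved by less than 1 SD. Causes were not tested.

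In the order Egr1cKO vs floxed control, Egr1cKO vs Cre control, Cre control vs wild type, floxed control vs wild type, Egr1cKO vs 18 mice and interaction, DESeq2 called 72, 29, 19, 1, 45 and 309 genes, with 3 for sex by Egr1cKO, and 1 member in the first and 1 in the interaction. With no filter on low counts, 9 genes were called and 20 members were higher at an unadjusted p under 0.05 in Egr1cKO vs floxed control, 13 members were higher in Egr1cKO vs Cre control, 8 genes were called with 2 members higher and 7 lower in Cre control vs wild type, and 4 genes were called in floxed control vs wild type. Against the 18 mice 7 were called, in the interaction 1173 with 12 members (15.2%, against 3.2% of all genes), and for sex by Egr1cKO 61 with 1 member (*Kcnt1*, 1.27%, against 0.167%) and 4 members above 0. The 12 were *Kcna1*, *Kcna3*, *Kcna4*, *Kcnb2*, *Kcnc2*, *Kcnd2*, *Kcne2*, *Kcnf1*, *Kcnh5*, *Kcnh7*, *Kcnj6* and *Kcnv1*. Shares of all genes at an unadjusted p under 0.05 are not given here for the fits with no filter. Counts of members higher, lower or above 0 in those fits therefore cannot be set against all genes.

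A shared fit of 24 mice called 7 genes in Egr1cKO vs floxed control and gave 2 members higher and 6 lower in floxed control vs wild type. With sex as a covariate, 2 members were higher in Cre control vs wild type, and 3 genes were called against the 18 mice. Shares of all genes are not given here for the member counts of these 2 alternatives. Leaving out female Cre control 1 and male Egr1cKO 3 together was added after seeing the data, and these mice were chosen by channel gene levels. It gave 3 called genes, 19 members higher and 3 lower in Egr1cKO vs Cre control, 218 called, 20 higher and 5 lower against the 18 mice, 3 members lower between the sexes, and 3 members above and 1 below 0 for sex by Egr1cKO.

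The labels number the mice 1 to 3 in every group and sex, but same-numbered mice did not deviate together, with correlations from -0.247 to 0.227 and at most 2 of 6 pairs over 0.1, so the numbers do not pair the mice. With the replicate block, 9 genes were called and 22 members higher in Egr1cKO vs floxed control, and 3 genes were called against the 18 mice. In Egr1cKO vs Cre control 10 members were higher, and in Cre control vs wild type 7 were lower. There was 1 below 0 in the interaction and 1 lower between the sexes. These member counts are at an unadjusted p under 0.05. Shares of all genes in these fits are not given here, so the counts cannot be set against them.

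Leaving out 1 mouse at a time gave 2 to 8 called genes, 0 members called, 8 to 24 higher and 2 to 4 lower in Egr1cKO vs floxed control. In Egr1cKO vs Cre control it gave 1 to 255 called genes, 0 members called, 2 to 21 higher and 0 to 2 lower. Cre control vs wild type had 0 to 111 called genes, 0 to 2 members called, 0 to 3 higher and 1 to 12 lower, and floxed control vs wild type 0 called, 2 to 6 higher and 6 to 19 lower. In the comparison with the 18 mice and in both interactions only each of the 6 Egr1cKO mice was left out, and no control mouse. Against the 18 mice there were 1 to 215 called genes, 0 members, 4 to 22 higher and 0 to 4 lower, and in the interaction 1 called gene, 0 members, 13 to 22 above and 1 to 5 below 0. The sexes gave 11 to 14 called genes, 0 members, 5 to 11 higher and 0 to 4 lower, and sex by Egr1cKO 0 called, 0 to 5 above and 1 to 4 below 0. Members higher, lower, above or below 0 are at an unadjusted p under 0.05, and the share of all genes at that p moved too. In floxed control vs wild type 19 lower were 24.7%, against 8.84% of all genes. In the interaction 13 above were 16.5%, against 8.1% or 9.11%, and 22 were 27.8%, against 11.8%. Between the sexes 11 higher were 14.7%, against 3.27% or 3.35%.

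Without male floxed control 1, 5 genes were called in Egr1cKO vs floxed control, and without male Egr1cKO 2, 8. With 6 mice a genotype and whole tissue, values of single members rest on few animals. Members with few counts, such as *Kcnn4*, *Kcnj5* and *Kcne2*, have little precision at this depth. Levels per kilobase use the exon length of all transcripts of a gene, and channel protein and current were not measured.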
